A study of Mus musculus with 192 samples.

Results

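The measurements described here are the RNA levels of 10 genes linked to heat production in brown fat, its control or brown fat identity. They were Ucp1, Ucp3, Cidea, Elovl3, Dio2, Ppargc1a, Prdm16, Zic1, Adrb3 and Kcnk3. They were chosen by name from the 54752 genes of a gene-level RNA sequencing table, and each name matched 1 gene. Male C57BL/6 mice (C57BL/6J in the study's methods) labelled as 12 weeks of age had either stayed on the International Space Station (FL, the flight groups) or lived in the same kind of cage on the ground (GC, the ground controls). The study's methods give 12 weeks as the age of the flight mice before launch, so their tissues were taken at a later age. Each was either wild type (WT) or Nrf2KO, a germline knockout of Nfe2l2, the gene of the stress-response factor Nrf2, in every cell (KO). The main tissues were interscapular brown fat (iBAT) and epididymal white fat (eWAT), with 6 mice in each of the groups GC_WT, FL_WT and GC_KO and 5 in FL_KO, after knockout flight mouse 4 was left out as the study had done because of an intestinal haemorrhage. A further 7 tissues served for reference. No group was a transgenic or pooled model: every sample came from 1 mouse, and mice of both genotypes were housed singly.

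Brown adipocytes burn fat in mitochondria whose inner membrane is made leaky to protons by UCP1, so that fuel oxidation gives heat in place of ATP. Noradrenaline from sympathetic nerves starts the process through beta adrenergic receptors and cyclic AMP, which frees fatty acids and induces Ucp1, the coactivator gene Ppargc1a and Dio2, whose enzyme makes active thyroid hormone inside the cell. White fat of the epididymal pad stores fat, and in mice holds few cells that express Ucp1. In the text a level is given in TPM, the share of a library's transcripts that came from a gene, corrected for gene length and depth. A change is given as a log2 fold change with a standard error (SE) from edgeR's quasi-likelihood fit on counts, scaled by the trimmed mean of M values (TMM), and is said to rise or fall where the Benjamini-Hochberg adjusted p over all genes tested in that tissue was under 0.05. The SE was derived from the test's F statistic, as the absolute log2 change divided by the square root of F. The 95% interval of a log2 change spans 1.96 SE on each side, and both are rough for genes with few counts.

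Promoter sequence of the 250 bases before the RefSeq start (build GRCm38.p6) was available for 6 of the 10 genes. The 3 shown are those that held the cyclic AMP response element half-site TGACG on either strand, since cyclic AMP is the signal that links the nerve to these genes. Motifs are in capitals, and CGTCA is the same half-site read on the other strand. The sequences run 5′ to 3′ on the gene's strand, at chr8:83290098-83290347 (plus strand) for Ucp1, chr12:90739039-90739288 (minus strand) for Dio2 and chr5:51567726-51567975 (minus strand) for Ppargc1a.
Ucp1: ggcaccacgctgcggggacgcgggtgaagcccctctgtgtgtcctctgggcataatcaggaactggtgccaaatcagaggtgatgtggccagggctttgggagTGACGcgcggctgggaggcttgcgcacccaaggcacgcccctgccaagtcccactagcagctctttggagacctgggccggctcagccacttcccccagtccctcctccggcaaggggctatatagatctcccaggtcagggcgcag
Dio2: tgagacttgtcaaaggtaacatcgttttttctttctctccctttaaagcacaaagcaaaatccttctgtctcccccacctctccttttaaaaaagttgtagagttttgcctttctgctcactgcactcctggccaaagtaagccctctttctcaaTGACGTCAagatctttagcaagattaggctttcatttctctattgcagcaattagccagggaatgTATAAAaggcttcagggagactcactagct
Ppargc1a: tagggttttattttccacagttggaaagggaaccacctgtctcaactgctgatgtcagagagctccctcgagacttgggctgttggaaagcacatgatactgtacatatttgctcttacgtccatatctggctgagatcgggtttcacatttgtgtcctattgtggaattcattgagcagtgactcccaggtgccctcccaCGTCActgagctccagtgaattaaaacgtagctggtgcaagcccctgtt
Dio2 held the full palindrome TGACGTCA, which overlaps the half-site on both strands, 95 bases before its start, and a TATA box (TATAAA) 30 bases before it. The half-site lay 147 bases before the start in Ucp1 and 49 bases before it in Ppargc1a. Of 32851 mouse promoters of the same length, 17.8% held the half-site and 1.55% the full palindrome on either strand, and 12.4% held TATAAA. The windows of Ucp3, Prdm16 and Zic1 held no half-site. None of the 6 held TGACNNNGC, the core of the antioxidant response element to which Nrf2 binds, which 10.2% of all promoters did. These matches describe letters in the window and were not measured as binding sites.

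The fat libraries were of even depth, with 15704377 to 16308175 expected counts per sample in iBAT and 15471214 to 16046347 in eWAT, and those of the other tissues held 8007523 to 15318155. In each of the 9 tissues the highest knockout sample had less Nfe2l2 RNA than the lowest wild-type sample (in iBAT, 11.8 to 19.0 TPM against 34.6 to 57.1), so no sample went against its genotype label. Where in the gene the remaining knockout reads lay was not tested. Flight mice were dissected in California about a month after launch and ground controls in Japan in another season, so flight cannot be told apart from place, date and transport. The sum of 18 skeletal muscle markers was 36.4 to 161 TPM in 20 of the 23 iBAT samples and stood at 10458 in FL_WT mouse 6, 5069 in FL_WT mouse 8 and 12708 in FL_KO mouse 11. All 10 general adipocyte markers were above a mean of 1 TPM in both depots, and 10 white fat markers summed to 19.6 to 227 TPM in iBAT against 4988 to 7107 in eWAT. In iBAT, TPM shifted against the counts: over 8006 genes the median flight change in TPM was 0.31 on the log2 scale in wild type and 0.43 in the knockout, against 0.02 and 0.04 in the edgeR fits, so that a TPM ratio above 1 in iBAT can stand beside a fold change below 0. On the TPM scale limma called 55.7% of these genes higher and 3.63% lower with flight in wild type, and 65.3% and 5.43% in the knockout. The shifts in eWAT were 0.09 and 0.02. There limma called 16.7% higher and 4.23% lower in wild type and 5.61% and 2.88% in the knockout.

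In the ground control wild-type mice the 10 genes differed widely in where they were expressed. Ucp1 (chromosome 8, 83290352 to 83298452, plus strand, mm10) averaged 2179.5 ± 319 TPM in iBAT (SD, n = 6), 48.0 ± 29.5 in temporal bone (TpB), 4.12 ± 5.76 in eWAT and 0.68 or less in each of the other tissues. Cidea (chromosome 18, 67343604 to 67367785), which encodes a protein of the lipid droplet surface, had the same order at the top, with 2216 ± 181 TPM in iBAT, 86.0 ± 41.3 in temporal bone and 9.36 ± 4.30 in eWAT. For both genes iBAT did not overlap any other tissue, while for Ucp1 the temporal bone samples (12.2 to 82.7 TPM) overlapped the white fat samples (0.42 to 14.2).

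Kcnk3 (chromosome 5, 30588170 to 30625271), a potassium leak channel of the plasma membrane, was also highest in iBAT, at 143 ± 10.7 TPM, and its levels in temporal bone, eWAT and cerebrum (21.3, 18.02 and 15.8 TPM) overlapped in that order. Ucp3 (chromosome 7, 100472990 to 100486432), a mitochondrial carrier related to UCP1 that is known from muscle and brown fat, was at 62.1 ± 20.5 TPM in iBAT and 31.2 ± 6.00 in eWAT, with no overlap between these depots. Elovl3 (chromosome 19, 46131897 to 46135694), an enzyme that lengthens saturated fatty acids, was at 129 ± 22.5 TPM in iBAT and 119 ± 83.0 in liver, where single mice ran from 23.9 to 226, and its level in iBAT and liver could not be ordered beyond that spread.

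Other members were not highest in brown fat. Adrb3 (chromosome 8, 27225776 to 27250616), the adrenergic receptor of adipocytes, was at 683 ± 89.3 TPM in eWAT and 119.6 ± 36.4 in iBAT, and was at 5 TPM or less on average in every other tissue. Dio2 (chromosome 12, 90724552 to 90738438) was at 42.1 ± 4.92 TPM in cerebrum and 39.0 ± 13.6 in iBAT, which overlapped, and at 0.30 ± 0.19 in eWAT. Ppargc1a (chromosome 5, 51454250 to 51567726) was at 20.04 ± 4.39 in cerebrum, 17.7 ± 13.6 in iBAT, 16.03 ± 4.87 in temporal bone and 14.6 ± 0.87 in kidney (n = 3), each overlapping the next. Prdm16 (chromosome 4, 154316125 to 154636873), a factor that holds brown adipocytes to their fate, was at 4.22 ± 0.63 TPM in cerebrum and 4.10 ± 1.96 in iBAT, again overlapping. Zic1 (chromosome 9, 91358058 to 91365810), a developmental transcription factor that marks classical brown fat against white, reached 127 ± 127 TPM in temporal bone, where single mice ran from 5.70 to 287, and 33.0 ± 3.61 in cerebrum, against 4.67 ± 1.38 in iBAT. Of the 10 genes, 9 are overlapped by a gene on the other strand in the annotation and Ppargc1a also by genes on its own strand, and whether the counting used strand is not given in the sources used here.

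**Figure D1:**
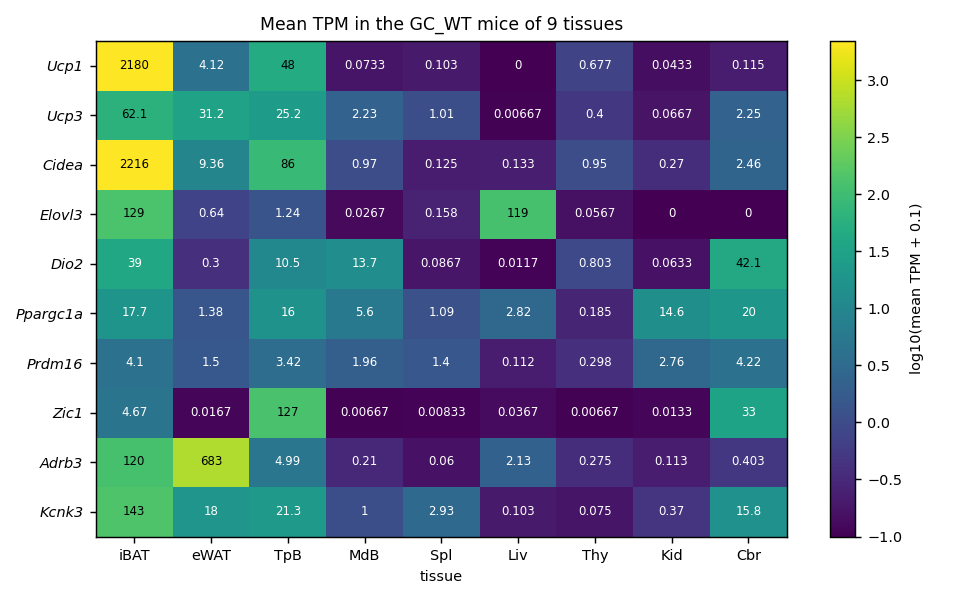
Mean TPM of the 10 genes (rows) in the ground control wild-type mice of 9 tissues (columns, 6 mice each, 3 for MdB and Kid), coloured by log10(mean TPM + 0.1), with the mean printed in each field. Ucp1 and Cidea stand at 2179.5 and 2216 TPM in iBAT, while Adrb3 is highest in eWAT at 683 TPM and Zic1 in temporal bone at 127 TPM.

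Over the 9 tissue means, the gene whose pattern was most like that of Ucp1 was another member, Cidea, with a Pearson r of 0.985 on log2(TPM + 1) among the 6824 genes with at least 5 TPM in iBAT. The next were 9130214F15Rik (r = 0.976), Otop1 (0.975), a proton channel, Cpt1b (0.974), the carnitine palmitoyltransferase that lets fatty acids into mitochondria, and Gm10032 (0.967). Of the other members Ucp3 had an r of 0.81, Kcnk3 0.81, Elovl3 0.59, Adrb3 0.57, Dio2 0.54 and Ppargc1a 0.40, while Prdm16 and Zic1 were under the level needed. These are descriptions over 9 points that share mice.

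The close relatives of these genes were at other levels in the iBAT of the ground control wild-type mice. The highest relative in each family was Ucp2 at 6.60 ± 0.70 TPM, Cidec, a lipid droplet protein, at 1029 ± 154, Elovl6, which lengthens shorter fatty acids, at 191 ± 25.0, Ppargc1b at 24.3 ± 5.73, Adrb1 at 6.63 ± 1.47 and Mecom at 2.68 ± 0.38. Zic4 (0.51 ± 0.14), Kcnk6 (0.73 ± 0.12) and Dio3, which inactivates thyroid hormone (0.06 ± 0.04), were near the floor. Within GC_WT, Elovl3 was below Elovl6 in every mouse, Ppargc1a overlapped Ppargc1b, and Prdm16 overlapped Mecom. The remaining members were above these relatives in every GC_WT mouse.

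The direct comparison of brown with white fat used both depots of the same mice in 1 fit. The 8 genes that passed the filter on low counts in eWAT alone all differed in the ground control wild-type mice, and all but Adrb3 were higher in iBAT. Of the 15837 genes tested 73.1% differed, 34.8% higher and 38.2% lower. Elovl3 and Zic1 entered the fit only through iBAT, where they are high, and so had to differ. On the TPM scale limma called 6.75% of 11101 genes higher in iBAT and 86.8% lower, with a median of -1.23. The 10 genes kept their directions. In raw counts per total, Ucp1 was 749 times as abundant in iBAT (95% interval 674 to 834, counting error only), Cidea 335 times (308 to 365), Elovl3 284 times (215 to 384) and Dio2 186 times (151 to 230). A single white fat sample held much of the eWAT counts of some genes. For Ucp1 201 of 348 were in mouse 3, and for Elovl3 29 of 49 in mouse 10. Without these mice the ratios were 1405 and 570. Zic1 had 1274 counts in iBAT and 3 in eWAT over 6 mice, a ratio of 416 with a counting interval of 142 to 2018, and 2 of the 3 counts were in mouse 3 (1073 without it). The genes that eWAT also expressed had smaller ratios, 14.6 for Ppargc1a, 11.3 for Kcnk3, 3.83 for Prdm16 and 2.80 for Ucp3. Adrb3 was the exception, at 0.22 of its eWAT level in raw counts per total. In the edgeR fit, which scales by TMM, its log2 difference was -1.31 ± 0.15 (2.48-fold lower in iBAT, adjusted p = 3.9e-08). The fit put Ucp1 at 2229-fold and Cidea at 666-fold higher in iBAT, outside their counting intervals. The size of a depot difference thus depends on the method, and the raw ratios and fitted changes are not the same measure.

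In the iBAT of wild-type mice, flight went with a lower level of Elovl3 and with no called change of Ucp1. Elovl3 was at 93.8, 128 and 158 TPM (lowest, median, highest) in GC_WT and at 54.6, 70.7 and 82.7 in FL_WT. The groups did not overlap, as was the case for 24.1% of all genes with at least 5 TPM, 1.32% with flight below. The log2 fold change was -1.23 ± 0.26 (2.34-fold lower, adjusted p = 0.0020), the only 1 of the 10 members called, where 19.2% of the 13574 genes tested were called (8.83% higher, 10.3% lower). In bulk tissue, fewer cells of a type and less RNA per cell cannot be told apart. With the lower Elovl3 level in FL_WT went a lower sum of the 9 erythroid markers, of which 5 were above a mean of 1 TPM. That sum was 604 to 1091 TPM in GC_WT and 336 to 538 in FL_WT. The sum of the 10 endothelial markers, all above a mean of 1 TPM, was higher, at 183 to 238 TPM in GC_WT and 242 to 417 in FL_WT. TPM in iBAT shifted upward with flight in wild type (median 0.31 on the log2 scale over all genes). The median sums of all the other marker lists were higher in FL_WT as well, with ranges that overlapped. The part of these cell types in the result was not tested.

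The heat-producing carrier did not share this fall. Ucp1 was at 1811, 2251 and 2626 TPM in GC_WT and at 2221, 2626.5 and 4159.5 in FL_WT. The ranges overlapped, although 3 FL_WT mice were above the highest ground control, and the log2 fold change was 0.07 ± 0.22 with a 95% interval of -0.35 to 0.50. Ucp3 was at 41.9, 59.3 and 89.3 TPM in GC_WT and 65.2, 87.0 and 112 in FL_WT, with a log2 fold change of 0.23 ± 0.26. The highest value belonged to mouse 6, which carried muscle RNA, and the part of muscle in Ucp3 was not tested.

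Cidea gave opposite signs on the scales used. It was at 1944, 2233 and 2442 TPM in GC_WT and 2324, 2440 and 3028 in FL_WT, with 3 of the 6 FL_WT mice above the highest ground control, while the edgeR log2 fold change was -0.11 ± 0.10 (adjusted p = 0.49). Fitted with limma on log2(TPM + 1), the change was 0.19 (adjusted p = 0.029), less than the median shift of all genes on that scale. No direction is given for Cidea in wild type.

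The inducible genes Dio2 and Ppargc1a were the most variable. Ppargc1a ran from 6.66 to 42.5 TPM (median 12.1) in GC_WT and from 11.2 to 95.1 (median 29.0) in FL_WT. The 3 highest FL_WT values belonged to mice 3, 5 and 6, and the ranges overlapped, with a log2 fold change of 0.71 ± 0.48 (adjusted p = 0.31). Dio2 was at 18.5, 38.7 and 59.4 TPM in GC_WT and 11.9, 36.1 and 89.9 in FL_WT, with a log2 fold change of -0.24 ± 0.51. The 95% intervals were wide, from -0.22 to 1.65 for Ppargc1a and from -1.25 to 0.76 for Dio2.

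The identity factors and membrane proteins were close to the ground level. Prdm16 was at 2.08, 3.76 and 7.03 TPM in GC_WT and 3.34, 4.92 and 6.67 in FL_WT (-0.01 ± 0.23). Zic1 was at 2.88, 4.49 and 6.63 in GC_WT and 3.83, 4.83 and 10.4 in FL_WT (-0.09 ± 0.28). Adrb3 was at 81.4, 109.7 and 185 in GC_WT and 91.2, 167 and 254 in FL_WT (0.15 ± 0.18), and Kcnk3 at 130.3, 140.2 and 156 in GC_WT and 142, 157 and 202 in FL_WT (-0.13 ± 0.09). All 4 genes overlapped between the groups, and none was called on either scale.

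**Figure D2:**
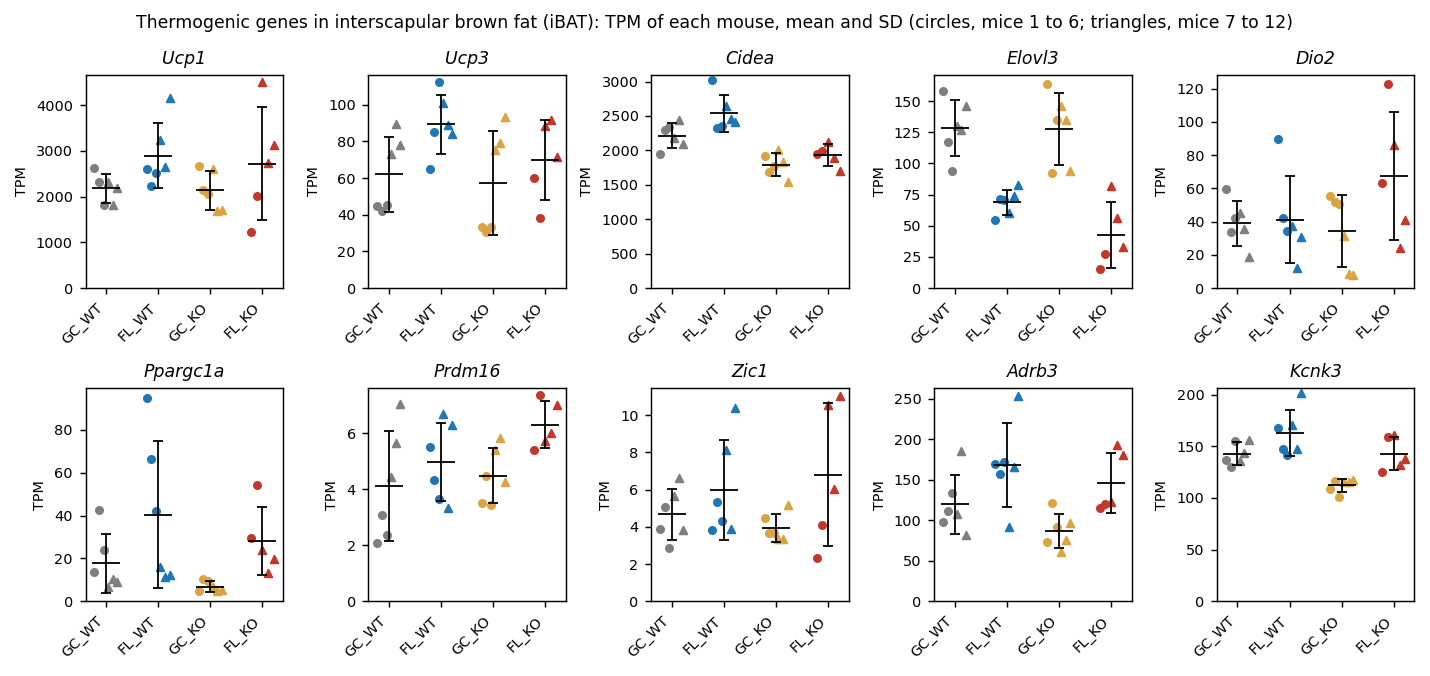
TPM of each gene (1 panel each) in iBAT of every mouse, by group, with the group mean and SD, circles for mice 1 to 6 and triangles for mice 7 to 12. Elovl3 sits at 93.8 to 158 TPM in GC_WT and 54.6 to 82.7 in FL_WT, and at 92.1 to 164 in GC_KO and 15.1 to 82.0 in FL_KO, while Ucp1 overlaps between flight and ground in both genotypes.

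In the knockout mice the fall of Elovl3 in iBAT was seen again, and Ppargc1a rose. Elovl3 was at 92.1, 135 and 164 TPM in GC_KO, and at 15.1, 27.6, 82.0, 55.8 and 32.8 in FL_KO mice 1, 2, 9, 11 and 12. Every flight mouse was below every ground control, as for 2.94% of all genes at this level (48.6% did not overlap in either direction), and the log2 fold change was -2.04 ± 0.28 (4.11-fold lower, adjusted p = 1.3e-05). Elovl3 kept its call in both genotypes under every alternative fit, with any 1 sample left out and without the 3 samples that carried muscle RNA.

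Ppargc1a was at 4.73, 5.84 and 10.5 TPM in GC_KO and at 29.8, 54.5, 24.0, 13.4 and 19.6 in FL_KO mice 1, 2, 9, 11 and 12. The groups did not overlap, with flight above as for 45.6% of all genes at 5 TPM or more, and the log2 fold change was 1.41 ± 0.50 (2.65-fold higher, adjusted p = 0.034). Together with Elovl3 and Cidea this made 3 of 10 members called, where 33.5% of all genes tested were (17% higher, 16.6% lower), so the share among the members was near that background. The Ppargc1a call was lost without FL_KO mouse 1 or 2, without GC_KO mouse 1, 9, 11 or 12 (log2 fold changes of 1.04 to 1.42, adjusted p = 0.053 to 0.14), and with no filter on low counts (adjusted p = 0.056).

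Cidea fell by 0.32 on the log2 scale (SE 0.11, adjusted p = 0.026) in the edgeR fit and was 0.11 higher on the TPM scale, where it was not called (adjusted p = 0.21). It was at 1543, 1798 and 2002 TPM in GC_KO and at 1943, 1994, 2127, 1894 and 1697 in FL_KO, overlapping. The edgeR call was lost without FL_KO mouse 11 or 12 or GC_KO mouse 1 or 9, and without the samples that carried muscle RNA (-0.28, adjusted p = 0.079). The change of Cidea with flight is therefore given with no direction in the knockout either.

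Ucp1 was not called in the knockout, with a log2 fold change of -0.11 ± 0.23 (95% interval -0.55 to 0.34). It was at 1679, 2100.4 and 2657 TPM in GC_KO and at 1233.5, 2019, 4504, 2726 and 3124 in FL_KO mice 1, 2, 9, 11 and 12. The flight mice spread on both sides of the ground controls, with mice 1 and 2 below their median and mice 9, 11 and 12 above their highest value. Within mice 1 to 6 alone the log2 fold change was -0.86 (adjusted p = 0.020, 3 against 2 mice), and within mice 7 to 12 it was 0.30 (adjusted p = 0.43).

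Ucp3 was at 30.3, 54.2 and 93.1 TPM in GC_KO and at 60.1, 38.4, 88.2, 91.5 and 71.5 in FL_KO, overlapping, with a log2 fold change of -0.15 ± 0.27 that was 0.37 on the TPM scale. Dio2 was at 7.92, 40.9 and 55.6 TPM in GC_KO and 63.3, 123, 86.2, 24.3 and 40.9 in FL_KO, with a log2 fold change of 0.57 ± 0.54 (adjusted p = 0.43). Again the ranges overlapped for both.

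Of the remaining members, Kcnk3 was at 100.7, 115.1 and 117 TPM in GC_KO and at 126, 159, 161, 132 and 138 in FL_KO, with no overlap in TPM, yet its edgeR change was -0.08 ± 0.09 and its TPM change 0.34 (limma, adjusted p = 0.0014), which is within the median shift of 0.43. Adrb3 was at 61.0, 83.6 and 121 TPM in GC_KO and at 114, 119.8, 122, 193 and 180.2 in FL_KO, with an edgeR change of 0.22 ± 0.19 and a called TPM change of 0.74 (limma, adjusted p = 0.0058), above that shift, and its TPM ranges overlapped. Prdm16 was at 3.43 to 5.83 TPM in GC_KO and 5.40 to 7.35 in FL_KO (0.06 ± 0.24), and Zic1 at 3.32 to 5.15 and 2.35 to 11.03 (0.28 ± 0.30), both overlapping.

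**Figure D3:**
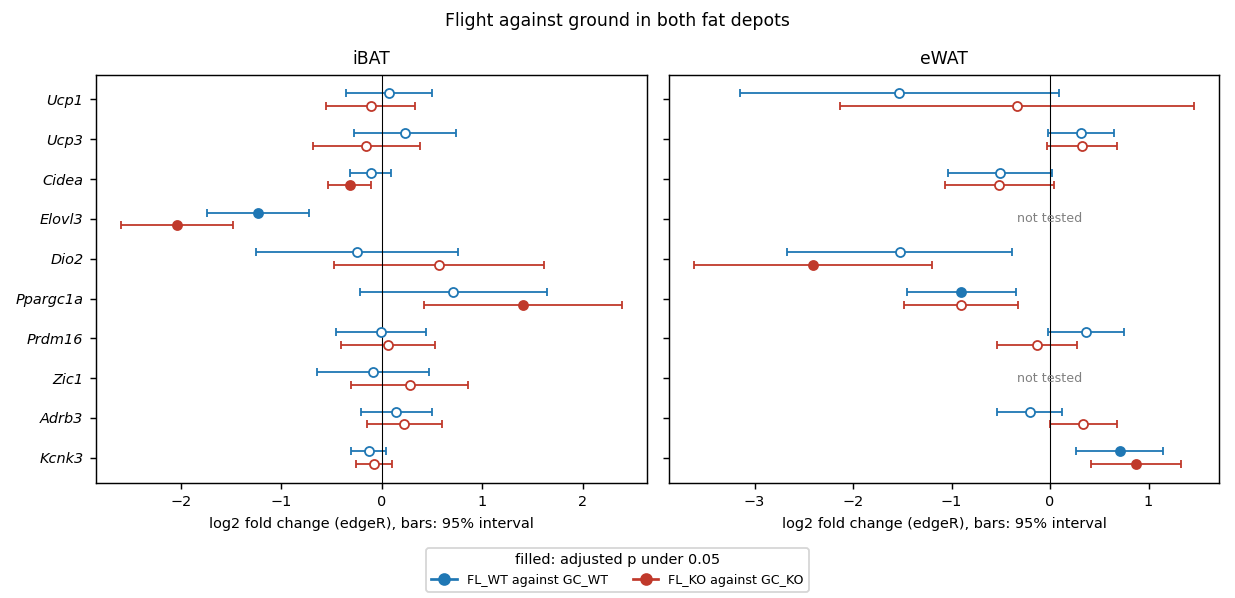
Log2 fold change of flight against ground for each gene (edgeR, points, with bars of the 95% interval) in iBAT (left) and eWAT (right), blue for wild type and red for knockout, filled where the adjusted p was under 0.05. Elovl3 lies at -1.23 and -2.04 in iBAT and Kcnk3 at 0.71 and 0.87 in eWAT, while Cidea in iBAT (-0.11 and -0.32) takes the opposite sign on the TPM scale (0.19 and 0.11).

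Loss of Nrf2 changed none of the 10 genes in the ground control iBAT by the edgeR test, where 2.14% of all genes were called. An unadjusted p under 0.05 was found for 1720 of the 13574 genes tested and for 3 members. These members were Kcnk3 (-0.27 ± 0.09, adjusted p = 0.12), Cidea (-0.23 ± 0.10, adjusted p = 0.35) and Ppargc1a (-1.06 ± 0.48, adjusted p = 0.35). DESeq2 called none of the 10, while limma on log2(TPM + 1) called Kcnk3 (-0.34, adjusted p = 0.018) and Cidea (-0.31, adjusted p = 0.019) lower in the knockout. In TPM the Kcnk3 groups did not overlap, with 100.7 to 117 in GC_KO and 130.3 to 156 in GC_WT, and 3.57% of all genes at this level did not overlap either, 3.19% with every knockout mouse lower. Ucp1 was level between the genotypes (0.04 ± 0.22), as was Elovl3 (0.06 ± 0.26).

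Among the flight mice, Cidea was lower in the knockout, by 0.44 on the log2 scale (SE 0.11, adjusted p = 0.041), the only 1 of 10 members called, where 1.5% of all genes were (0.228% higher, 1.27% lower). The 5 FL_KO mice at 1697 to 2127 TPM were all below the 6 FL_WT mice at 2324 to 3028, as for 1.54% of all genes at 5 TPM or more (2.19% in either direction). The difference lay between -0.35 and -0.49 in the alternatives that missed the threshold, among them no filter on low counts (adjusted p = 0.081), flight mouse 4 included (0.060), only the compared groups (0.21), and 13 of the 23 fits that each left out 1 sample. Elovl3 was lower in FL_KO than in FL_WT by 0.75 ± 0.27 and was not called (adjusted p = 0.23), and it was called without FL_KO mouse 9 (-1.14, adjusted p = 0.011).

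Whether the response to flight differed between the genotypes was tested directly, and 0 of the 10 genes, as 0 of all 13574, passed by edgeR. The number at an unadjusted p under 0.05 was 1 of 10 (Elovl3, -0.81 ± 0.37, adjusted p = 0.57) and 1127 of all genes, and no alternative fit called a member. Thus Ppargc1a, called in the knockout and not in wild type, was not shown to differ in its response (0.69 ± 0.69, adjusted p = 0.87).

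Within groups, levels in iBAT went with the mouse number. The numbers 1 to 6 and 7 to 12 split each group, and what the numbers stand for is not given in the sources used here. Ppargc1a was higher in every mouse of 1 to 6 than in every mouse of 7 to 12 in 3 of the 4 groups, at 42.1 to 95.1 against 11.2 to 15.9 TPM in FL_WT, 13.5 to 42.5 against 6.66 to 10.6 in GC_WT and 29.8 to 54.5 against 13.4 to 24.0 in FL_KO. Ucp3 went the opposite way in 3 of the 4 groups, with 41.9 to 45.6 against 73.0 to 89.3 TPM in GC_WT and 30.3 to 33.2 against 75.1 to 93.1 in GC_KO. Such a split in at least 3 groups was found for 11.2% of all genes with at least 5 TPM. Ucp1 was lower in mice 1 to 6 than in 7 to 12 in both flight groups and overlapped in both ground groups, and Dio2 was split in GC_KO alone (50.4 to 55.6 against 7.92 to 31.5).

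Of 6 clock genes, chosen after the values were seen, 3 were split by the same numbers in all 4 groups (Arntl, Per1 and Per2), Npas2 and Dbp in 3 and Nr1d1 in 2. A split in all 4 groups was found for 3.41% of all genes with at least 5 TPM. Arntl was at 1.42 to 9.10 TPM in mice 1 to 6 and 8 to 18.95 in mice 7 to 12, lower in the first set in 4 of 4 groups, and Per2 was at 19.3 to 47.1 and 5.05 to 17.5, higher in 4 of 4. The time of death of each mouse is not given in the sources used here, and the part of clock time in these levels was not tested. With the set as a term in the fit, the members called with flight in iBAT included Elovl3 in both genotypes.

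**Figure D4:**
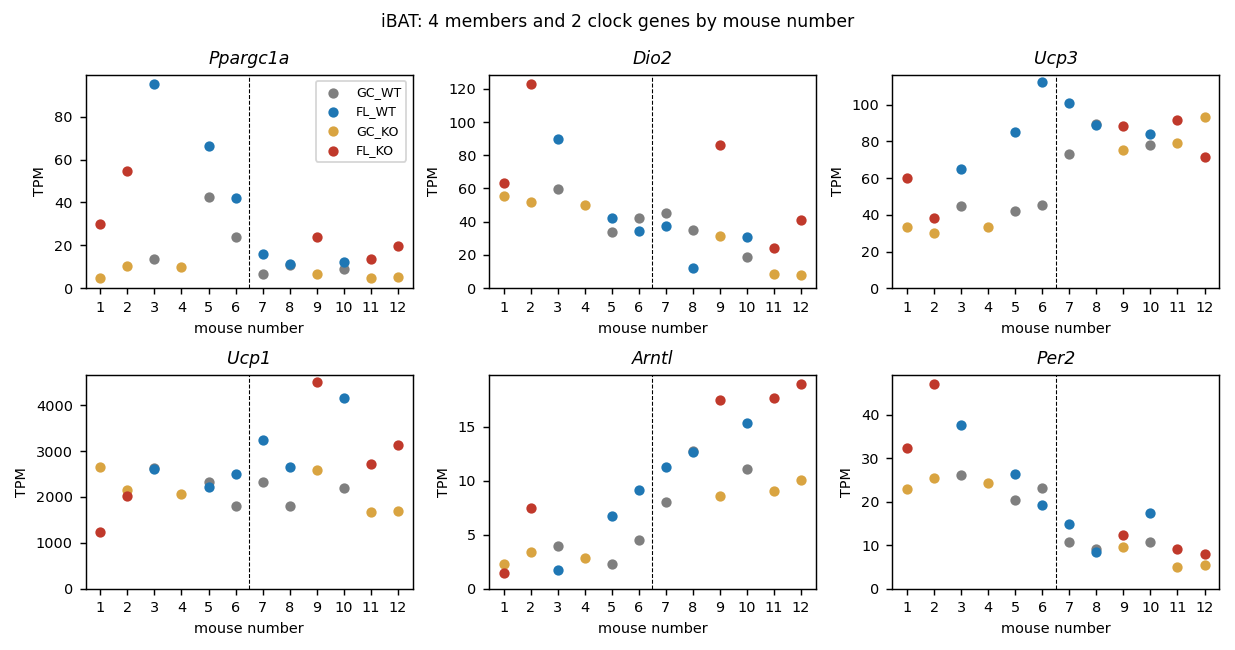
TPM in iBAT of 4 members and 2 clock genes (Arntl and Per2) by mouse number, coloured by group, with a dashed line between mice 1 to 6 and 7 to 12. Ppargc1a is at 42.1 to 95.1 TPM left of the line and 11.2 to 15.9 right of it in FL_WT, and Ucp3 at 30.3 to 33.2 and 75.1 to 93.1 in GC_KO.

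The genes around the 10 members in the same pathway were examined by lists. Of 25 tested genes of adrenergic and cyclic AMP signalling, 6 rose and 1 fell in FL_WT iBAT, and 7 rose and 0 fell in FL_KO, which is 28% in each, against 19.2% and 33.5% of all genes. On the TPM scale 13 of 22 were higher and 1 lower in FL_WT, where 55.7% of all genes were higher. In FL_KO 16 of 22 were higher, against 65.3% of all genes. Prkar2a, a regulatory subunit of protein kinase A, went from 5.52 to 12.4 TPM in GC_WT to 11.9 to 23.4 in FL_WT (0.72 ± 0.12), and Atf2, a factor that acts on Ppargc1a and Ucp1 downstream of p38 kinase, from 18.5 to 26.9 to 32.9 to 45.6 (0.45 ± 0.09), with like changes in the knockout (0.80 ± 0.13 and 0.59 ± 0.09). Rgs2, which damps signalling through G proteins, fell in FL_WT (-1.22 ± 0.30), while in the knockout it averaged 65.5 TPM in GC_KO and 109 in FL_KO. Adrb1, a relative of Adrb3, rose in FL_WT (0.89 ± 0.19) from 6.63 to 15.4 TPM on average. The list's median change was 0.05 in wild type and 0.25 in the knockout, against 0.02 and 0.04 over all genes.

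Thyroid hormone genes moved in both directions: of 8 tested, 3 rose and 2 fell in FL_WT, and 4 rose and 1 fell in FL_KO, which was 62.5% in each. By TPM 6 and 7 were higher and 1 lower. The largest change was in Thrsp, a target of thyroid hormone and carbohydrate that goes with fat synthesis, which was at 1227 to 2238 TPM in GC_WT and 462 to 843 in FL_WT (-1.57 ± 0.17), and at 1743 to 3065 in GC_KO and 499 to 745 in FL_KO (-2.36 ± 0.19). Rxrg, a partner of the thyroid hormone receptor, rose in both (0.58 ± 0.08 and 0.61 ± 0.08), as did the coactivator Ncoa1 in FL_WT (0.45 ± 0.13) and Rxra in FL_KO (0.29 ± 0.08). Thrb, a receptor for the hormone that Dio2 makes, fell in FL_WT by edgeR (-0.41 ± 0.10). On the TPM scale limma did not call it (-0.13, adjusted p = 0.38). In the knockout Thrb was at 6.94 to 10.5 TPM in GC_KO and 11.1 to 14.1 in FL_KO. Of the 6 lengthening enzymes related to Elovl3, 2 fell in both genotypes: Elovl6 from 174 to 241 TPM in GC_WT to 60.0 to 126 in FL_WT (-1.53 ± 0.17) and from 213 to 274 in GC_KO to 65.4 to 139 in FL_KO (-1.83 ± 0.18), and Elovl5 by 1.13 ± 0.17 and 0.99 ± 0.18 on the log2 scale. Elovl1 was not called by edgeR, with means of 4.90 TPM in GC_WT and 7.37 in FL_WT and of 4.63 in GC_KO and 7.63 in FL_KO. Elovl2, Elovl4 and Elovl7 averaged under 1 TPM in each group.

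The 24 genes of fatty acid oxidation and the mitochondrial machinery were called more often, 3 higher and 10 lower in FL_WT (54.2% against 19.2% of all genes) and 4 higher and 13 lower in FL_KO, but the balance of directions depended on the scale. Their median change was -0.17 in FL_WT and -0.32 in FL_KO by edgeR, and 0.16 and 0.10 on the TPM scale, where 11 were higher and 5 lower of 23 in FL_WT and 7 higher and 9 lower in FL_KO. Cox7a1, a subunit of cytochrome oxidase in brown fat and muscle, was lower on both scales, at 533 to 865 TPM in GC_WT and 393 to 555 in FL_WT (-0.85 ± 0.12), as was Acsf2, an acyl-CoA synthetase (-0.70 ± 0.06 in FL_WT and -0.96 ± 0.07 in FL_KO), and Hadhb, which works in beta oxidation, in FL_KO (-0.66 ± 0.06). Acot2, which releases fatty acids inside mitochondria, rose from 38.4 to 54.8 TPM to 91.7 to 134 in FL_WT (1.02 ± 0.13) and rose in FL_KO (0.67 ± 0.13), and Slc27a2, a fatty acid transporter, rose in both (0.63 ± 0.18 and 1.08 ± 0.19).

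Of 15 tested genes of a list for creatine, calcium and lipid cycling, 2 rose and 2 fell in FL_WT. Of all 13574 genes tested, 1199 rose and 1401 fell there. In FL_KO 2 of the 15 rose and 8 fell, where 2303 of all genes rose and 2251 fell. On the TPM scale 7 of 13 were higher and 0 lower in FL_WT, and 5 higher and 1 lower in FL_KO. Atp2a2, the calcium pump, rose from 57.2 to 74.2 TPM to 97.7 to 131 in FL_WT (0.58 ± 0.09) and rose in FL_KO (0.59 ± 0.10), and Slc6a8, the creatine transporter, rose in both (0.89 ± 0.15 and 0.97 ± 0.16). By edgeR Pm20d1, which makes uncoupling N-acyl amino acids, fell in both (-0.44 ± 0.15 and -1.15 ± 0.16), as did Slc25a44, the mitochondrial carrier of branched-chain amino acids (-0.41 ± 0.12 and -0.61 ± 0.12). On the TPM scale limma called Pm20d1 lower in FL_KO (-0.58, adjusted p = 0.00063) and not in FL_WT (-0.11, adjusted p = 0.47). It did not call Slc25a44 in FL_WT (-0.09, adjusted p = 0.59) or FL_KO (-0.16, adjusted p = 0.33). With any 1 sample left out, 0 to 4 genes of this list were lower in FL_WT.

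Of 26 transcriptional regulators of brown adipocytes beside Ppargc1a and Prdm16, 2 rose and 0 fell in FL_WT (7.69%, against 19.2% of all genes) and 4 rose and 1 fell in FL_KO (19.2% against 33.5%). On the TPM scale 10 of 20 were higher in FL_WT and 14 of 20 in FL_KO, with 0 lower, where all genes shifted upward. Klf11 (0.92 ± 0.27) and Zfp423 (0.48 ± 0.15) rose in FL_WT, and Pprc1, a relative of Ppargc1a (0.89 ± 0.20), and Zfp423 (0.57 ± 0.16) in FL_KO. Tfam, which maintains mitochondrial DNA, fell in FL_KO by edgeR (-0.28 ± 0.09) and was higher on the TPM scale (0.30). Of 9 secreted factors of brown fat, 0 were called in FL_WT by edgeR and 1 rose and 3 fell in FL_KO. On the TPM scale 3 of 7 were higher in FL_WT, and 2 higher and 2 lower in FL_KO. The genes called in FL_KO included Angptl8 (-2.07 ± 0.50) and Kng2 (-1.19 ± 0.33) lower and Ptgds (1.26 ± 0.31) higher. Of 5 tested beige fat markers, Slc36a2, an amino acid transporter of the brown adipocyte surface, rose in FL_WT (0.32 ± 0.09) and FL_KO (0.33 ± 0.09), and Car4 fell in FL_KO by edgeR (-0.31 ± 0.11) with the opposite sign on the TPM scale (0.13). Of 15 tested relatives of the members, 1 rose and 2 fell in each genotype. By TPM 5 of 8 were higher and 2 lower in each.

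By genotype on the ground, 1 of 25 adrenergic, 2 of 8 thyroid and 2 of 24 oxidative genes were called in iBAT. Called were 0 of the 26 regulators, 15 creatine, calcium and lipid cycling genes, 9 secreted factors, 5 beige markers and 15 relatives. Acadl, an acyl-CoA dehydrogenase, was at 1277 to 1548 TPM in GC_WT and 964 to 1050 in GC_KO (-0.41 ± 0.06), Slc27a2 was lower (-0.92 ± 0.18), and so were Rxrg (-0.37 ± 0.08) and the cyclic AMP-induced receptor gene Nr4a3 (-1.92 ± 0.50), while Thrsp was higher (0.64 ± 0.17). In flight, 9 of the 24 oxidative genes were lower in FL_KO than in FL_WT and 0 higher, with a median of -0.31 against 0.01 over all genes. Of all 13574 genes tested, 172 were lower and 31 higher. With any 1 sample left out, 4 to 9 oxidative genes were lower. On the TPM scale 8 of 23 were lower. The samples that carried muscle RNA were all flight samples, and the part of muscle in this count was not tested. Cidea, lower by genotype in flight, was called in the same comparison as these oxidative genes.

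In white fat Kcnk3 was higher with flight in both genotypes, Ppargc1a was called lower in wild type and Dio2 in the knockout. Of the 10 members, 8 passed the filter on low counts, and Elovl3 (0 to 46 counts a sample) and Zic1 (0 to 2 counts) did not. In wild type, 2 of 8 were called, 1 in each direction, where 13.4% of the 15317 genes tested were called (6.65% higher, 6.78% lower).

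Kcnk3 was at 11.2, 18.8 and 24.6 TPM in GC_WT and 25.0, 31.1 and 37.1 in FL_WT. Every flight mouse was above every ground control, as for 6.57% of all genes at 5 TPM or more (8.01% in either direction), and the log2 fold change was 0.71 ± 0.22 (1.63-fold higher, adjusted p = 0.039). In the knockout it was at 10.3, 17.5 and 23.5 TPM in GC_KO and at 38.7, 43.3, 29.8, 21.0 and 25.3 in FL_KO mice 1, 2, 9, 11 and 12, which overlapped, with a log2 fold change of 0.87 ± 0.23 (adjusted p = 0.024). Leaving out 1 of 8 samples in wild type or 1 of 3 in the knockout brought the adjusted p to between 0.051 and 0.090, with the log2 change at 0.61 or more. The sum of 10 endothelial markers, all above 1 TPM, was 637 to 899 TPM in GC_WT and 917 to 1321 in FL_WT, and 729 to 930 in GC_KO and 810 to 1126 in FL_KO, and their part in the Kcnk3 result was not tested.

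Ppargc1a went down in white fat, at 0.83, 1.43 and 1.83 TPM in GC_WT and 0.58, 0.67 and 1.19 in FL_WT, with a log2 fold change of -0.90 ± 0.28 (1.87-fold lower, adjusted p = 0.037). The ranges overlapped through FL_WT mice 7 and 10 at 1.19 and 1.16 TPM. In the knockout it was at 0.69, 1.72 and 3.33 TPM in GC_KO and at 0.71, 0.69, 1.01, 1.09 and 1.13 in FL_KO, with the same size of change (-0.90 ± 0.30) and an adjusted p of 0.064, which DESeq2 placed at 0.037. The wild-type call was lost without FL_WT mouse 3, 5, 6 or 8 or GC_WT mouse 6, 7, 8 or 10 (adjusted p = 0.051 to 0.089). In eWAT, in contrast to iBAT, Ppargc1a was lower in mice 1 to 6 than in 7 to 12 in 3 of 4 groups, a split found in 6.07% of all genes at 5 TPM or more.

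Dio2 was near its floor in white fat, with 3 to 81 counts a sample. It was at 0.06, 0.43 and 1.68 TPM in GC_KO and at 0.06, 0.06, 0.12, 0.20 and 0.08 in FL_KO, overlapping through GC_KO mouse 4, with a log2 fold change of -2.41 ± 0.62 (adjusted p = 0.019). With Kcnk3 it made 2 of 8 members called in the knockout, 1 in each direction, where 7.71% of all genes were (3.73% higher, 3.98% lower). Without GC_KO mouse 9, the highest at 1.68 TPM, the change was -1.72 (adjusted p = 0.068). In wild type it was at 0.12, 0.23 and 0.64 TPM in GC_WT and 0.06, 0.10 and 0.20 in FL_WT (-1.52 ± 0.58, adjusted p = 0.087).

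**Figure D5:**
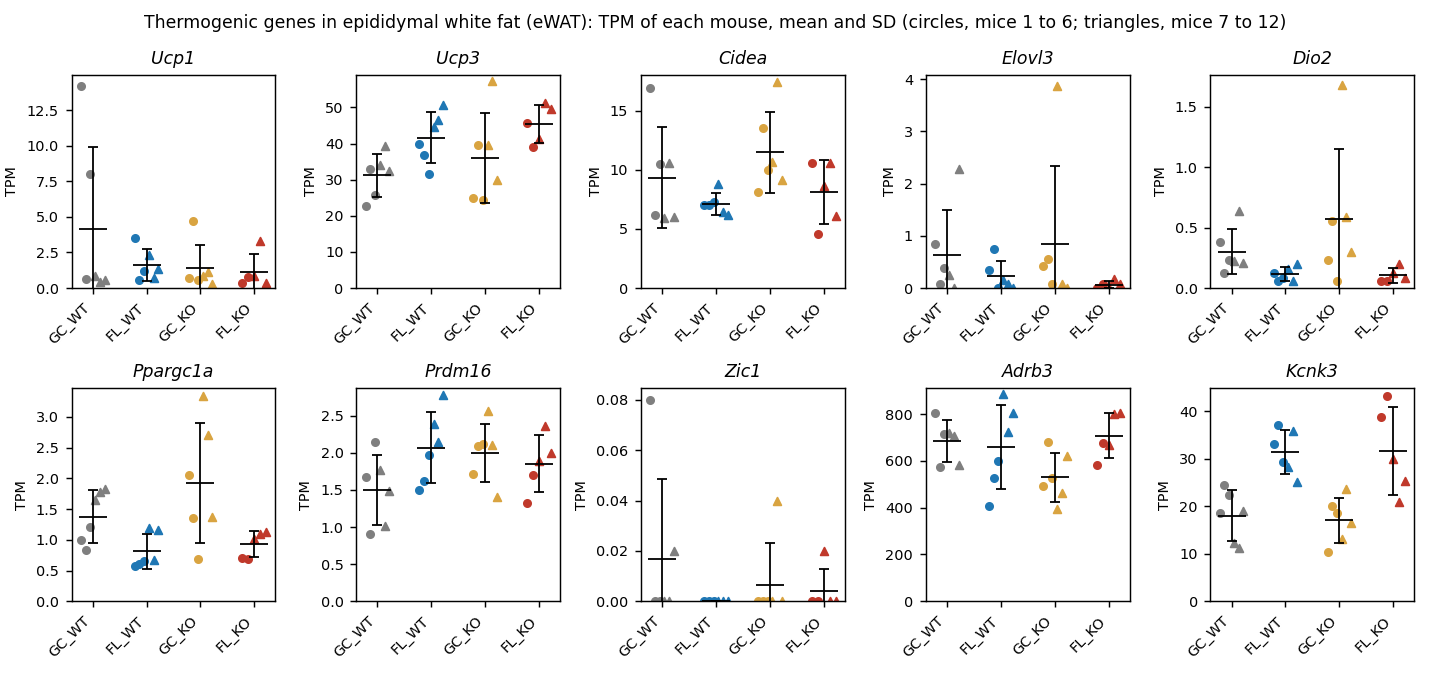
TPM of each gene (1 panel each) in eWAT of every mouse, by group, with the group mean and SD, circles for mice 1 to 6 and triangles for mice 7 to 12. Kcnk3 runs from 11.2 to 24.6 TPM in GC_WT and from 25.0 to 37.1 in FL_WT, while Ucp1 stays under 5 TPM in all mice but GC_WT mice 3 and 6, at 14.2 and 8.03.

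Ucp1 in white fat was set by single mice. It was at 0.42, 0.76 and 14.2 TPM in GC_WT, with mice 3 and 6 at 14.2 and 8.03 and the other 4 at 0.87 or less, and at 0.55, 1.25 and 3.52 in FL_WT (-1.53 ± 0.83, adjusted p = 0.24). In the knockout it ran from 0.29 to 4.73 TPM in GC_KO and from 0.35 to 3.31 in FL_KO (-0.34 ± 0.92). The 95% intervals, -3.15 to 0.09 and -2.14 to 1.47, leave a change of several fold not detectable. Cidea was at 5.91 to 16.9 TPM in GC_WT and 6.22 to 8.80 in FL_WT (-0.51 ± 0.27), and at 8.15 to 17.4 in GC_KO and 4.55 to 10.6 in FL_KO (-0.52 ± 0.28), not called in either.

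Adrb3, the member with the most RNA in white fat, was at 574, 709.6 and 806 TPM in GC_WT and 409, 659.6 and 887 in FL_WT (-0.21 ± 0.17), and at 395, 511 and 681 in GC_KO and 583, 674, 669, 802 and 806 in FL_KO (0.34 ± 0.17). The groups overlapped in each genotype. Ucp3 was at 22.7 to 39.4 TPM in GC_WT and 31.5 to 50.6 in FL_WT (0.31 ± 0.17), and at 24.5 to 57.4 in GC_KO and 38.9 to 51.2 in FL_KO (0.32 ± 0.18). Prdm16 was at 0.91 to 2.14 TPM in GC_WT and 1.5 to 2.78 in FL_WT (0.36 ± 0.20), and at 1.41 to 2.56 in GC_KO and 1.32 to 2.36 in FL_KO (-0.13 ± 0.21). None of the 3 was called in either genotype.

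By genotype, edgeR called 0 of 8 members in white fat on the ground, where 2.74% of all genes were called. In flight it called 0 of 8, where 1.06% were. DESeq2 called none of the 8 in either. Only Ucp3, Cidea, Adrb3 and Kcnk3 reached the mean of 5 TPM that limma needed, and limma called none of these. By edgeR, 1 of the 8 members, Adrb3, had an unadjusted p under 0.05 on the ground (-0.47 ± 0.17, adjusted p = 0.14), and in flight 0 did. Of all 15317 genes, 2367 had such a p on the ground and 1645 in flight. The difference between genotypes in the response to flight was likewise called for 0 of 8 and for 0 of all 15317 genes, with 1291 genes and 1 member at an unadjusted p under 0.05, again Adrb3 (0.55 ± 0.24, adjusted p = 0.57).

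Whether brown and white fat differed in their response to flight was tested in the fit over both depots. In wild type 1 of 10 members passed, where 10.2% of all genes did, and in the knockout 3 of 10, where 19.2% did. Kcnk3 differed in both genotypes, by -0.89 ± 0.23 in wild type (adjusted p = 0.015) and -0.999 ± 0.24 in the knockout (adjusted p = 0.0054), its level being higher with flight in eWAT and near ground in iBAT. In the knockout, Ppargc1a differed by 2.15 ± 0.69 (adjusted p = 0.032) and Dio2 by 2.96 ± 0.88 (adjusted p = 0.021), both relatively higher in iBAT. The same difference for Ppargc1a in wild type was 1.49 ± 0.68 (adjusted p = 0.17). For Elovl3 the difference was not detectable, since its counts in eWAT were 0 to 46 a sample.

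Around the members in white fat, 5 of 26 adrenergic genes rose and 3 fell in FL_WT, and 2 rose and 1 fell in FL_KO. Of all 15317 genes tested, 1019 rose and 1038 fell in FL_WT, and 572 rose and 609 fell in FL_KO. These numbers are the background for every list count of flight in white fat. Pde4d (0.73 ± 0.17) and Adra1a (0.68 ± 0.16) rose in FL_WT, Adcy5 (0.81 ± 0.14) and Adcy3 (0.34 ± 0.09), which make cyclic AMP, rose in FL_KO, and Rgs2 (-1.49 ± 0.40) and Prkacb (-0.22 ± 0.07) fell in FL_WT. Of 8 thyroid hormone genes 4 fell and 0 rose in FL_WT and 3 fell in FL_KO, with Thrsp at 1352 to 1946 TPM in GC_WT and 516 to 1277 in FL_WT (-1.17 ± 0.25) and lower in FL_KO (-1.35 ± 0.26). Rxra fell in FL_WT by edgeR (-0.18 ± 0.04). On the TPM scale limma called neither Rxra (-0.08, adjusted p = 0.36) nor Prkacb (-0.12, adjusted p = 0.33) in FL_WT.

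Of 24 regulators, 6 fell in FL_WT and 0 rose, among them Ebf2, which opens brown fat enhancers (-0.66 ± 0.14), and Tfam (-0.32 ± 0.07), and 0 of 24 were called in FL_KO. Their median change was -0.24 in FL_WT and -0.01 in FL_KO. On the TPM scale limma did not call Tfam in FL_WT (-0.15, adjusted p = 0.26). Of 22 oxidative genes 1 rose and 3 fell in FL_WT and 2 rose and 2 fell in FL_KO, with Pdk4, which spares glucose when fat is burned, at 13.6 to 27.6 TPM in GC_WT and 28.7 to 87.5 in FL_WT (1.26 ± 0.34) and higher in FL_KO (1.28 ± 0.35), Hadhb higher in FL_KO (0.37 ± 0.10), and Cpt2 (-0.46 ± 0.11) and Letmd1 (-0.22 ± 0.07) lower in FL_WT. Letmd1 was not called in FL_WT by limma on the TPM scale (-0.11, adjusted p = 0.27).

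Among 14 genes of the list for creatine, calcium and lipid cycling, 1 rose and 1 fell in FL_WT and 1 rose and 4 fell in FL_KO. Mgll, the lipase that completes the breakdown of fat, rose in FL_WT (0.48 ± 0.09) and FL_KO (0.56 ± 0.09), and Dgat2 (-0.85 ± 0.17) and Ckb (-0.42 ± 0.10) fell in FL_KO. Of 10 secreted factors 1 rose and 1 fell in FL_WT, the fall being that of Igf1 (-0.88 ± 0.16), and 2 fell in FL_KO, where Angptl8 ran from 9.11 to 581 TPM in GC_KO and from 7.15 to 19.1 in FL_KO (-3.89 ± 0.97). Of 7 beige markers, Car4, a carbonic anhydrase, rose in FL_WT (0.73 ± 0.16), and 0 were called in FL_KO. Of 16 relatives of the members, Elovl1 (0.26 ± 0.07) rose and Kcnk2 (-0.77 ± 0.16) fell in FL_WT, and Elovl6 (-1.67 ± 0.33) fell in FL_KO, with 2 of 16 lower in each genotype.

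By genotype on the ground in white fat, 1 thyroid gene, 4 oxidative genes, 2 creatine, calcium and lipid cycling genes and 2 relatives were called. Called were 0 of 26 adrenergic genes, 24 regulators, 10 secreted factors and 7 beige markers. Of all 15317 genes tested, 203 were higher and 216 lower in the knockout. Thrb (-0.67 ± 0.10), Acadl (-0.41 ± 0.08), Slc27a1 (-0.69 ± 0.16) and Kcnk2 (-0.71 ± 0.16) were lower in the knockout, and Slc6a8 (0.58 ± 0.16) and Elovl6 (1.36 ± 0.31) higher.

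In the other 7 tissues the members gave 3 calls with flight in wild type and 1 in the knockout, where 4.08% and 6.09% of all tests in these tissues were called. Ppargc1a rose with flight in the thymus in both genotypes, by 0.69 ± 0.23 (adjusted p = 0.035) and 1.03 ± 0.24 (adjusted p = 0.0015), from a ground level of 0.19 TPM in wild type. Adrb3 rose in the wild-type thymus (1.65 ± 0.51, adjusted p = 0.022) and Kcnk3 in the wild-type spleen (0.77 ± 0.18, adjusted p = 0.026), both from ground levels under 3 TPM. The share of all genes called with flight was 22.8% in the wild-type and 38.2% in the knockout thymus. The 2 and 1 of 7 members called there were thus near or below the background. In wild type the share was 2.26% in spleen and 3.45% in liver. In liver, Adrb3 was higher in FL_KO than in FL_WT (0.90 ± 0.24, adjusted p = 0.039), where 3.65% of all genes were called. It was the only 1 of the members' calls by genotype in flight over these tissues, where 1.38% of all tests were. On the ground 0 members were called by genotype in edgeR and 1 in DESeq2, where 1.44% of all tests were, 2.64% in liver, 3.81% in thymus and 1.61% in kidney, and 10 of the 43 tests of members had an unadjusted p under 0.05. In flight the share by genotype was 2.64% in thymus. In temporal bone, where Ucp1 and Cidea were second highest, 0 of the 10 members were called by edgeR in any comparison, where 0% of all genes were called with flight in either genotype. By genotype 0.198% were called on the ground and 0.203% in flight. At an unadjusted p under 0.05 stood 1 of them, Cidea with flight in wild type (-1.56 ± 0.60), as did 675 of all 18184 genes there. The SE of Ucp1 was 0.95 for flight in wild type.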

How the data were processed

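RNA of 9 tissues from 24 mice was sequenced as single reads on strand-specific libraries, from poly(A) RNA or, in the thymus, ribosome-depleted RNA. Per the study's methods, the authors aligned reads with STAR 2.6.1 to mm10 and quantified genes with RSEM 1.3.1. The table deposited by the authors holds expected counts, not normalized, and TPM, scaled within each sample. The FPKM values deposited by the authors, normalized by RSEM for gene length and depth, were not used. Whether counting used strand is not given in the sources used here.

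Expected counts were rounded, filtered (filterByExpr by group), scaled by TMM and tested with edgeR 4.0.16's quasi-likelihood test, with the 4 groups of a tissue in 1 fit and Benjamini-Hochberg adjustment over all genes tested. The depots were compared in 1 fit with the mouse as a block. Alternatives were another tool on the counts (DESeq2 1.42.0), limma 3.58.1 on TPM for genes with a group mean of at least 5 TPM, logged after adding 1 or 0.1, another scaling, no filter, only the compared groups, flight mouse 4 included, a muscle covariate, the mouse number as a block, and each sample left out. Mouse set terms, each mouse set alone, iBAT without muscle RNA and the depot ratios without the highest mouse were chosen after seeing the data. R was version 4.3.3, and scripts were tested on simulated data.

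The members and lists were chosen with earlier results of these data known. All 10 members are described in each comparison. From each list up to 2 called genes in each direction with the smallest adjusted p and at least 5 TPM in a group were named, with relatives of the members by the same rule and the highest relative of each family, and the 5 genes most like Ucp1. A gene that this rule would name is not reported here. Samples are separate mice of single libraries, and counting intervals cover counting error only. Depth limits the precision of the low genes. Gene coordinates are from GENCODE vM21 on mm10, and promoters from RefSeq.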

Additional observations from a re-analysis of the deposited data

Results flagged for a closer look

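Of 68 groups of 5 or 6 mice tested for a sample far from the others, 2 held such a sample. That is below the share of about 1 in 20 that chance gives. Both were Ucp1 in eWAT: GC_KO mouse 2 at 4.73 TPM, with the nearest mouse at 1.13, and FL_KO mouse 11 at 3.31 TPM, with the nearest at 0.85. The response to flight differed between iBAT and eWAT by the test of the difference itself in the edgeR fit over both depots, for Kcnk3 in wild type (-0.89, adjusted p = 0.015) and in the knockout (-0.999, adjusted p = 0.0054), for Dio2 in the knockout (2.96, adjusted p = 0.021) and for Ppargc1a in the knockout (2.15, adjusted p = 0.032). Dio2 in eWAT had 3 to 81 counts a sample.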

How the results depend on the processing

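Elovl3 in iBAT was called lower in both genotypes in all 37 fits, and all 10 members, of which 2 entered only through iBAT, differed between depots with any 1 sample left out (10 to 10). In iBAT FL_WT, limma called 2 members at either pseudocount; on the ground by genotype, limma called 2 and 2 and the fit of only the compared groups 1; in flight by genotype, 0 were called with no filter, flight mouse 4, only the compared groups, mice 7 to 12 alone, or without muscle RNA. In eWAT FL_WT, limma called 1 and 1, no filter 0, mice 1 to 6 alone 0 and mice 7 to 12 alone 1. In eWAT FL_KO, limma called 1 and 1, only the compared groups 0, mice 1 to 6 alone 0 and mice 7 to 12 alone 1. Genes under a mean of 5 TPM in every group were not tested by limma, among them Ppargc1a and Dio2 in eWAT. The same held for Ppargc1a and Adrb3 in the thymus and for Adrb3 in the liver, so a missing limma call there is no result. In the other 7 tissues limma called 0 in FL_WT, FL_KO and by genotype in flight, where no filter and only the compared groups also gave 0, and DESeq2 called 1 on the ground by genotype. With 1 sample left out, calls ranged from 1 to 1 in iBAT FL_WT, 1 to 3 in iBAT FL_KO, 0 to 2 by genotype in flight, 0 to 3 in eWAT FL_WT and 0 to 3 in eWAT FL_KO, 1 to 2 and 1 to 4 for the depot difference in wild type and knockout, and 3 to 4, 1 to 3, 0 to 1 and 0 to 1 in the other tissues (FL_WT, FL_KO, genotype on the ground and in flight). The cause was not tested.

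Signs reversed on the log2(TPM) scale at either pseudocount for Cidea in iBAT FL_WT (0.19 and 0.19) and FL_KO (0.11 and 0.11), and in FL_KO for Ucp1 (0.24 and 0.24), Ucp3 (0.37 and 0.38) and Kcnk3 (0.34 and 0.34). They also reversed in FL_KO iBAT for Ucp1 without FL_KO mouse 1 (-0.38 to 0.060 with any 1 sample left out) and in mice 7 to 12 (0.30), for Ucp3 without GC_KO mouse 12 (-0.28 to 0.011) and in mice 1 to 6 (0.25), and in mice 1 to 6 for Adrb3 (-0.14) and Kcnk3 (0.024). For the depot difference in the knockout they reversed for Cidea without FL_KO mouse 2 (-0.042 to 0.31), and for Elovl3 by limma (-1.23) and without GC_KO mouse 9 (-0.39 to 1.61).

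The main fits did not pair flight and ground samples by mouse number. In each depot 2 of 6 wild-type and 4 of 5 knockout pairs of the same number deviated together (r above 0.1). Of 10 or 12 samples in each, 1 to 3 correlated best with their own number. These values do not settle whether the numbers pair the samples. With the replicate block the calls were 1 and 4 in iBAT, where Dio2 was added in the knockout (0.92, adjusted p = 0.025 by edgeR), and 2 and 3 in eWAT (wild type, knockout), and 2 in FL_KO of the other tissues.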

Other observations

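Knockout flight mouse 4, left out of every comparison above, had 107.6 TPM of Ppargc1a in iBAT, against 13.4 to 54.5 in the other 5 FL_KO mice, and 1.19 TPM in eWAT, against 0.69 to 1.13. Its Adrb3 was below theirs in both depots, at 108 TPM in iBAT (the others 114 to 193) and 374 TPM in eWAT (the others 583 to 806). Its Prdm16 in iBAT was at 3.77 TPM, below the others at 5.40 to 7.35, and its Kcnk3 at 167 TPM, above the others at 126 to 161. Ucp1 (2392 TPM), Elovl3 (35.6 TPM) and Dio2 (112 TPM) in iBAT lay within the range of the other mice.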
